A study of Mus musculus with 15 samples.

Results

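Rab genes encode the small GTPases that direct vesicle traffic. The genes described here are the 59 whose annotated symbol is Rab followed by a number and at most 1 letter from a to d, out of 18193 genes that the array measures with a probe set of a single gene. These 59 genes have 132 such probe sets, and the brightest on average over all arrays stands for its gene. Of the 59, 42 had a mean level high enough to be tested and 17 did not.

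Foam cells are macrophages filled with lipid in atherosclerotic lesions. They were cut by laser-capture microdissection from the aortic sinus of C57BL/6 mice with the genotype ApoE-/-, so every group lacks apolipoprotein E. Their amplified RNA was hybridised to 15 Affymetrix whole-genome mouse arrays, 5 for each of 3 diets. The CHOW mice ate regular chow to week 22. The 2w-WD mice ate a western-type diet for 2 weeks, which the sample labels place after 20 weeks of chow and the series text between weeks 22 and 24, so its age at sampling is not settled. The 14w-WD mice ate the western-type diet for 14 weeks, from week 8 to week 22. The labels do not tie an array to an animal, so a p-value here reflects the variation among the samples of a group, part of which may be technical. There is no wild-type group. In 14w-WD versus 2w-WD the length of feeding and the week at which the diet began cannot be told apart.

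A Rab protein switches between a GDP-bound form in the cytosol and a GTP-bound form on a membrane, where it recruits the tethers, motors and coats that move and fuse vesicles. Exchange factors switch it on, GTPase-activating proteins switch it off, and a prenyl anchor, attached by an enzyme of its own, holds it to the membrane. In macrophages this traffic carries ingested lipoproteins and particles from the early endosome to the late endosome and the lysosome, returns receptors to the cell surface and delivers newly made proteins from the endoplasmic reticulum (ER) and the Golgi.

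Levels are given as log2(intensity + 16), and a change is a difference between group means on this scale, which understates the change of dim genes. Probe sets differ in brightness, so the levels of different genes are not set against each other. Tests used limma on all 15 arrays and 11925 genes, with p-values adjusted over all of them by the Benjamini-Hochberg method, and a gene counts as higher or lower at an adjusted p under 0.05. A gene was tested when its mean over all arrays reached 5.66, the median of all probe sets.

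The macrophage label was checked against 13 measured marker genes, of which 12 lay above that level. Their summed intensity ran from 86455 to 111294 in CHOW, from 75573 to 96781 in 2w-WD and from 91443 to 105537 in 14w-WD. RNA of other cells was present too: all 15 heart muscle markers and all 8 fibroblast markers lay above the level, as did 7 of 9 for smooth muscle and 5 of 9 for endothelium. The summed intensity of the heart muscle markers ran from 2671 to 69828 in CHOW, from 54943 to 111481 in 2w-WD and from 26930 to 80607 in 14w-WD. In these bulk samples fewer cells of a type and less RNA per cell cannot be told apart. Bright probe sets, those over an intensity of 100, made up 21.7% ± 1.84 of all on the CHOW arrays, 20.9% ± 2.86 on the 2w-WD arrays and 24.8% ± 1.79 on the 14w-WD arrays (SD, n = 5 each). The 2w-WD arrays stood apart from each other: replicate 1 had a share of 25.7% and replicate 4 a share of 18.2%.

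Of the 42 tested Rab genes, 9 rose and 0 fell in 14w-WD versus 2w-WD, which sets long against short feeding: Rab9 and Rab42 of the late endosome group, Rab22a and Rab31 of the early endosome, Rab35 and Rab15 of recycling, Rab8b of exocytosis, and Rab18 and Rab23, which have other roles. Their changes ran from 0.77 to 1.90. The 9 are 21.4% of the tested Rab genes, against 10.1% of all genes tested that were called higher. Of the 9, Rab42 passed the level needed for testing only through its 14w-WD arrays. On the lower side, 1.15% of all genes were called, and at an unadjusted p under 0.05 in limma 1 Rab gene lay on that side, Rab39, against 6.13% of all genes. The median change of the 42 Rab genes was 0.62 and that of all genes 0.23, and 32 of 42 Rab genes lay above 0, against 65.2% of all genes. Under quantile normalization 29 lay above 0, with Rab4a, Rab12 and Rab40c turned to the other side, and the median was 0.39, against 0.00709 for all genes.

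The count of 9 rested on single arrays. It was 1, for Rab9, without 2w-WD replicate 4, 1 without 14w-WD replicate 1, 2 without 2w-WD replicate 2, 2 without 14w-WD replicate 3, 5 without 14w-WD replicate 2, 5 without 14w-WD replicate 5, and 20 without 2w-WD replicate 1. With the share of bright probe sets as a covariate it was 0. The shares of all genes called in these fits are not given here. The shifts in count therefore cannot be read as particular to Rab genes. Without 2w-WD replicate 4, still 32 of 42 Rab genes lay above 0, with a median of 0.41 against 0.17 for all genes.

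**Figure D1:**
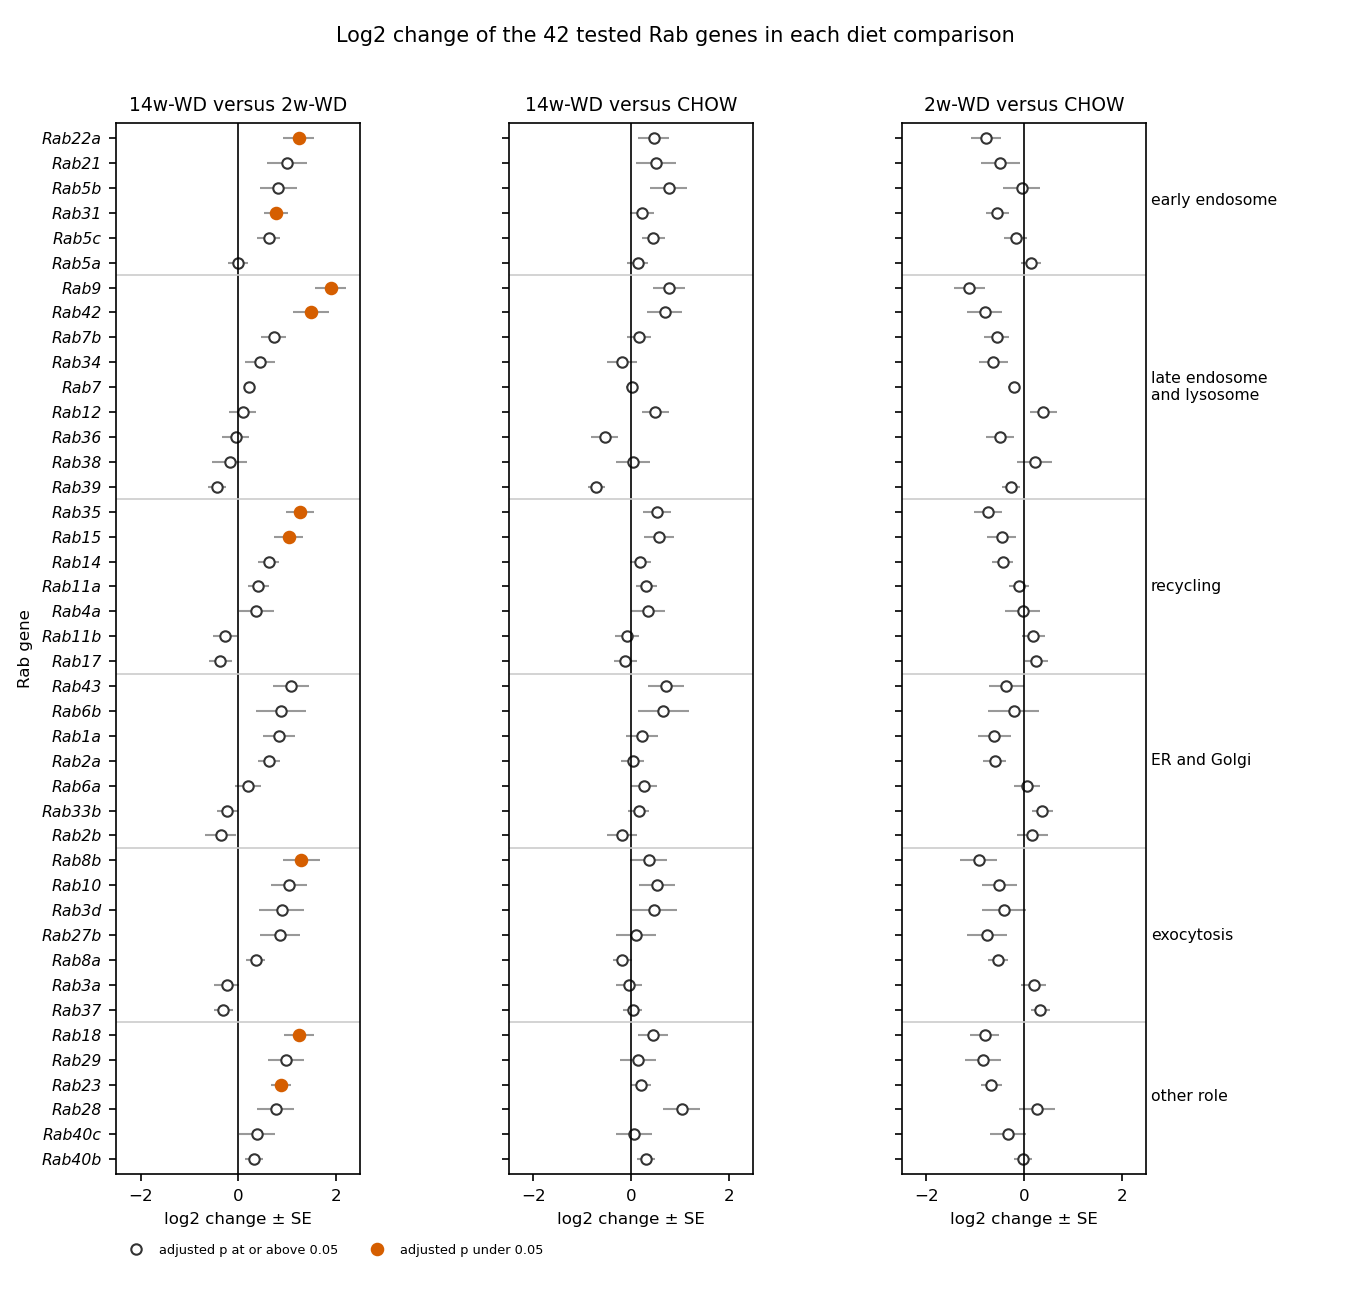
Log2 change (horizontal axes) of the 42 tested Rab genes (rows, by role) in the 3 comparisons, as limma estimates with SE bars. Filled points have an adjusted p under 0.05, which 9 genes reach in 14w-WD versus 2w-WD and none in the other comparisons; 32 of 42 points lie above 0 in 14w-WD versus 2w-WD (29 under quantile normalization, where Rab4a, Rab12 and Rab40c turn).

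Rab9, which carries mannose 6-phosphate receptors from the late endosome back to the Golgi, had the largest change of the family. Its level was 9.89, 9.41, 9.35, 10.07 and 9.36 on the 5 CHOW arrays, 9.18, 8.20, 8.41, 7.68 and 9.03 on the 2w-WD arrays, and 10.34, 9.98, 10.30, 10.71 and 10.65 on the 14w-WD arrays. All 2w-WD arrays lay below every CHOW array, and all 14w-WD arrays lay above every 2w-WD array, while a single CHOW array reached into the 14w-WD range. The level averaged 10.39 ± 0.30 in 14w-WD and 8.50 ± 0.62 in 2w-WD (SD, n = 5 each), a rise of 1.90 (SE 0.32, adjusted p = 0.00738), or 3.72-fold. Rab9 was also the 1 Rab gene that passed the F test over the 3 groups (adjusted p = 0.0254, with 2.62% of all genes called). Its change was still called without 2w-WD replicate 4 (1.69, adjusted p = 0.0190). Over 29 alternatives it lay between 1.47 and 2.07 and was called in 28, the exception being the covariate for the share of bright probe sets (adjusted p = 0.309). Rab9 has a single probe set on the array.

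The promoters of the called genes are shown as a description of their sequence. These genes share a direction because they were selected as higher in the same comparison. RefSeq windows from 250 bases before to 50 bases after the start of the gene, on GRCm38.p6, were held for 48 of the 59 Rab genes and for 8 of the 9 called. Printed are the 4 called genes with the largest changes among those and Rab22a, which holds the most GC boxes. Each runs 5′ to 3′ on the strand of the gene, and capitals mark GC boxes, the letters GGGCGG on either strand (CCGCCC on the other). The Rab9 window is chrX:166479818-166480117 on the minus strand, that of Rab42 chr4:132303307-132303606 on the minus strand, and that of Rab8b chr9:66919656-66919955 on the minus strand. The Rab35 window is chr5:115631737-115632036 and that of Rab22a chr2:173659595-173659894, both on the plus strand.
Rab9: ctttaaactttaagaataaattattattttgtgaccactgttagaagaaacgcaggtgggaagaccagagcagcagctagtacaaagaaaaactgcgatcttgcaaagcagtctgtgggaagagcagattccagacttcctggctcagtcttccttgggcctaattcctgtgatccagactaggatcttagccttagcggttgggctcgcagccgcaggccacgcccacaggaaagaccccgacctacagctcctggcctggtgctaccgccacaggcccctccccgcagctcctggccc
Rab42: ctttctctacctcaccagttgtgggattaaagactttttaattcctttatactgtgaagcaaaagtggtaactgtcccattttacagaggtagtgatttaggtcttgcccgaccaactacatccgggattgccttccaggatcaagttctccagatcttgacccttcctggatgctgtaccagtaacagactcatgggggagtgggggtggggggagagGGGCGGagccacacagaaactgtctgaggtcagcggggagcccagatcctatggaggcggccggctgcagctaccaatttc
Rab8b: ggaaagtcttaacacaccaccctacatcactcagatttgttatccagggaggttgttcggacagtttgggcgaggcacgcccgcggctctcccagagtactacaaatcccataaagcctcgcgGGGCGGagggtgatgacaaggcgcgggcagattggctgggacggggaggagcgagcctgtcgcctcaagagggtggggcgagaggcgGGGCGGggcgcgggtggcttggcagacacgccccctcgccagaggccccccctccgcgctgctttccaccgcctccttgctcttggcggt
Rab35: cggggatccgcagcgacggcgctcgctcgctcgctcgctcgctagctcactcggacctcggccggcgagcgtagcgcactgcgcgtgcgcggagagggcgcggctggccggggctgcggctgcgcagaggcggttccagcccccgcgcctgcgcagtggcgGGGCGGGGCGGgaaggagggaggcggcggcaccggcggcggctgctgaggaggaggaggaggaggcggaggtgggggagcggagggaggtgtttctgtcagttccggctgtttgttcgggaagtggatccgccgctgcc
Rab22a: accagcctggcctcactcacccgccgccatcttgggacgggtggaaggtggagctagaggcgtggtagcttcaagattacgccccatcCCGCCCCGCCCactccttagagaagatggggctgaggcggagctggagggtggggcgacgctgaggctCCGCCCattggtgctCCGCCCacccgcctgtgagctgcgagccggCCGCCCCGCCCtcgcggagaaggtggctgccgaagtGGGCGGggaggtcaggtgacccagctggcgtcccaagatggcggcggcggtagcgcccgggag

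A GC box, the element bound by Sp1-type factors, stood in a window of 7 of the 8 called genes (87.5%) and of 28 of the 34 tested Rab genes with a window (82.4%), against 64% of the 9563 tested genes with one. Rab22a had 7 such boxes, Rab35 and Rab8b had 2 each, Rab42 had 1 and Rab9 had 0. The E-box CACGTG, the core of the element read by the lysosomal regulator TFEB, stood in a window of 1 of the 8, Rab23, and of 3 of the 34 tested Rab genes (8.82%), against 11.2% of tested genes. GAGGAAG, the core of the site of the macrophage factor PU.1, stood in none of the 8 called genes and in 6 of the 34 (17.6%), against 15.8% of tested genes. Both strands were searched, a gene counts when any of its windows holds the letters, and the letters are a description of the sequence and not a test of binding. The motifs were chosen after the calls were known.

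Of the early endosome Rab genes all 6 were tested, 2 rose in 14w-WD versus 2w-WD, 5 lay above 0 and the median change was 0.79. Over all genes tested, 10.1% were called higher and 65.2% lay above 0, with a median change of 0.23. Rab22a, which steers cargo from early endosomes towards recycling, stood at 8.61, 8.13, 7.45, 8.27 and 7.56 in CHOW, at 7.84, 7.00, 7.65, 7.06 and 6.61 in 2w-WD and at 8.61, 8.35, 8.69, 7.94 and 8.72 in 14w-WD. Every 14w-WD array lay above every 2w-WD array, and CHOW overlapped both. The rise of Rab22a was 1.23 (SE 0.31, adjusted p = 0.0240). Rab31, which acts between the Golgi and endosomes, stood at 12.36, 12.01, 12.14, 11.93 and 11.18 in CHOW, at 11.72, 11.14, 11.51, 10.68 and 11.85 in 2w-WD and at 12.39, 12.18, 12.15, 11.99 and 12.04 in 14w-WD. Its rise of 0.77 (SE 0.24, adjusted p = 0.0489) was the smallest of the 9, with no overlap of the 14w-WD and 2w-WD arrays and the lowest value on 2w-WD replicate 4.

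The 3 Rab5 genes, which run fusion at the early endosome, were not called. Rab5a, at 11.25, 12.17, 12.17, 12.22 and 12.54 in CHOW, 12.31, 12.37, 12.31, 11.78 and 12.29 in 2w-WD and 11.86, 12.27, 12.10, 12.45 and 12.36 in 14w-WD, overlapped in all groups, and its change of -0.01 (SE 0.21) was the closest to 0 in the family. Rab5b had a change of 0.81 (SE 0.38, adjusted p = 0.149) between 14w-WD, at 6.51, 7.34, 7.21, 7.54 and 7.22, and 2w-WD, at 7.78, 6.11, 6.06, 4.96 and 6.84. Both its highest and its lowest array of those 10 were 2w-WD arrays, replicates 1 and 4. Rab5c had 0.62 (SE 0.23, adjusted p = 0.0844), with means of 6.46 ± 0.51 in 14w-WD and 5.84 ± 0.27 in 2w-WD. Rab21, linked to the uptake of integrins, had 0.99 (SE 0.41, adjusted p = 0.108).

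**Figure D2:**
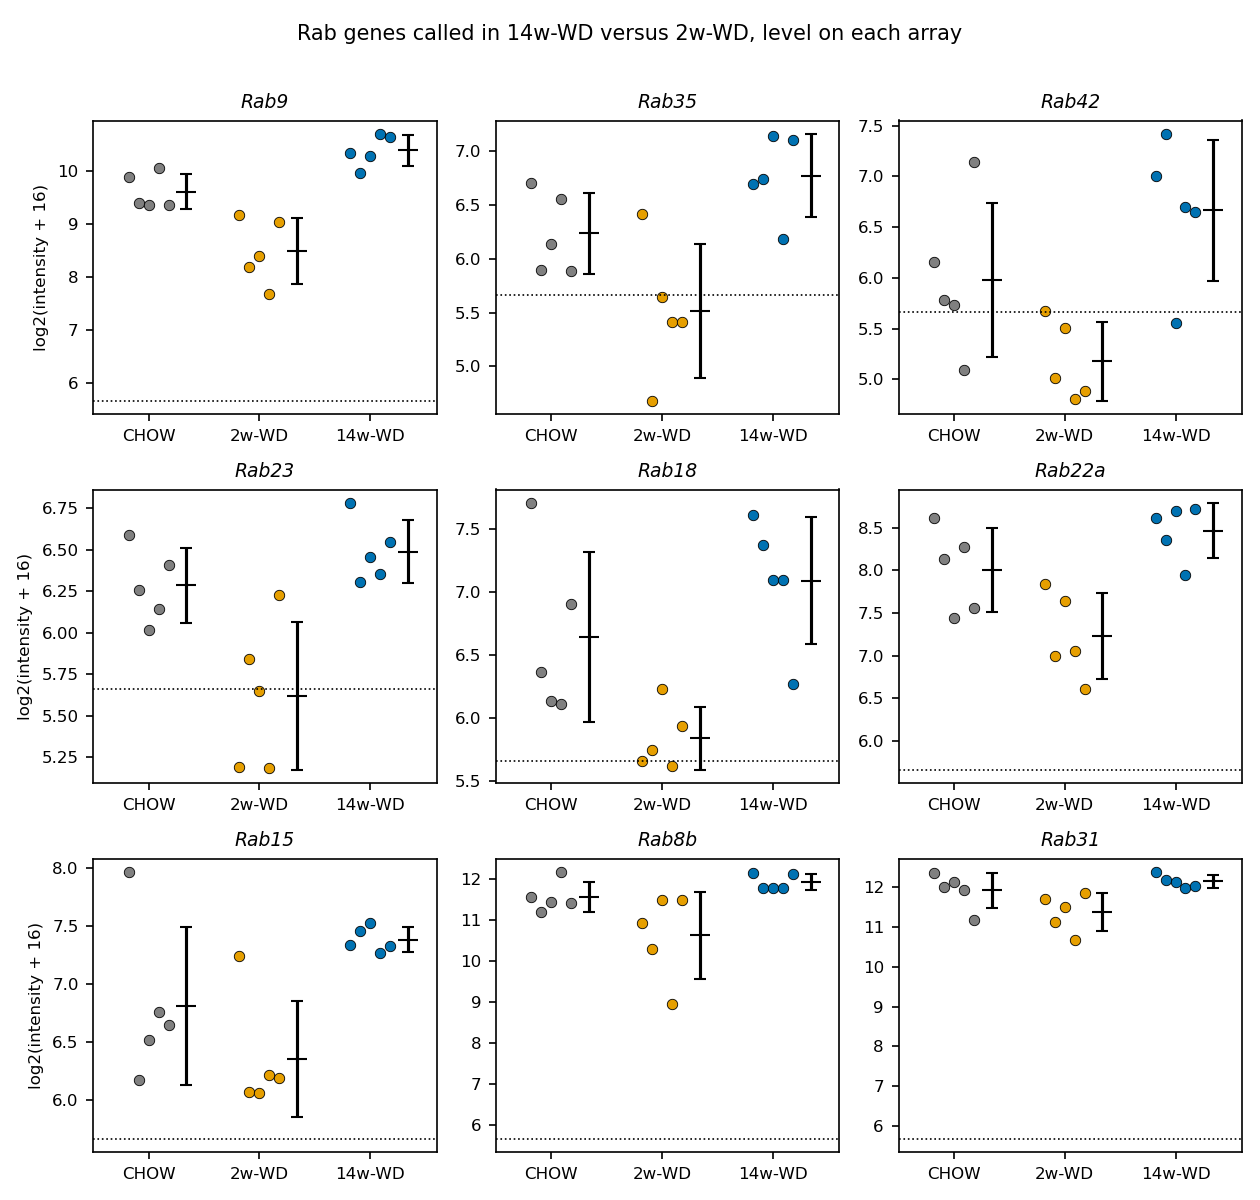
Level in log2(intensity + 16) (vertical axes) of the 9 Rab genes called in 14w-WD versus 2w-WD, with 1 point per array in replicate order, the mean and SD of each group (n = 5) beside the points, and a dotted line at the level of 5.66 needed for testing. For 7 of the 9 every 14w-WD array lies above every 2w-WD array; Rab35 and Rab42 overlap.

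The late endosome and lysosome group had 14 members, of which 9 were tested and 2 rose in 14w-WD versus 2w-WD (22.2%, against 10.1% of all genes). Its median change was 0.23, the same as that of all genes at 0.23, and 6 of 9 lay above 0, against 65.2% of all genes. Rab42 stood at 6.16, 5.78, 5.73, 5.09 and 7.15 in CHOW, at 5.67, 5.02, 5.51, 4.80 and 4.88 in 2w-WD and at 7.00, 7.42, 5.55, 6.70 and 6.65 in 14w-WD. Replicate 3 of 14w-WD lay inside the 2w-WD range and the other 4 above it. Rab42 rose by 1.49 (SE 0.36, adjusted p = 0.0213), and its 2w-WD mean of 5.18 ± 0.39 lay under the level needed for testing. It passed that level only through its 14w-WD arrays, which averaged 6.67 ± 0.69, beside 5.98 ± 0.76 in CHOW. Its call is therefore not independent of the filter.

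Rab7, the GTPase that drives fusion of late endosomes with lysosomes, stood at 12.56, 12.98, 12.87, 12.92 and 12.89 in CHOW, at 12.67, 12.63, 12.79, 12.32 and 12.76 in 2w-WD and at 12.87, 12.84, 12.91, 12.86 and 12.84 in 14w-WD. The 14w-WD arrays spread little and lay above all 2w-WD arrays, but the difference was 0.23 (SE 0.12, adjusted p = 0.186). Rab7b, which acts from late endosomes towards the Golgi and lysosomes, stood at 12.29, 12.18, 12.28, 12.18 and 12.33 in CHOW, at 11.80, 11.97, 12.14, 10.42 and 12.12 in 2w-WD and at 12.53, 12.41, 12.46, 12.18 and 12.50 in 14w-WD. Here too 14w-WD and 2w-WD did not overlap, with a change of 0.72 (SE 0.25, adjusted p = 0.0685) that was 0.41 (adjusted p = 0.0722) without 2w-WD replicate 4. Rab34, which positions lysosomes, had 0.44 (SE 0.31, adjusted p = 0.324), Rab12 had 0.09 and Rab36 had -0.05. Rab38, which serves melanosomes and related organelles together with Rab32, had -0.18 (SE 0.35, adjusted p = 0.751).

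Rab39, a GTPase of endosomes and phagosomes, lay on the lower side after long feeding. It stood at 5.84, 6.08, 6.00, 6.23 and 6.25 in CHOW, at 5.57, 5.36, 6.09, 5.87 and 6.17 in 2w-WD and at 5.23, 5.36, 5.57, 5.18 and 5.51 in 14w-WD. All 14w-WD arrays lay below all CHOW arrays and overlapped the low end of 2w-WD. The change was -0.44 (SE 0.18, adjusted p = 0.110) in 14w-WD versus 2w-WD and -0.71 (SE 0.18, adjusted p = 0.117) in 14w-WD versus CHOW, so it was called in neither. The 14w-WD mean of 5.37 ± 0.17 lay under the level needed for testing, which Rab39 passed only through its CHOW arrays, at 6.08 ± 0.17. Its lower value in 14w-WD versus CHOW is therefore not independent of the filter.

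Of the 9 recycling Rab genes 7 were tested, 2 rose in 14w-WD versus 2w-WD, 5 lay above 0 and the median change was 0.41. The shares over all genes were 10.1% called higher and 65.2% above 0, with a median of 0.23. Rab35, which returns receptors quickly to the plasma membrane, stood at 6.70, 5.89, 6.14, 6.56 and 5.89 in CHOW, at 6.42, 4.68, 5.64, 5.41 and 5.41 in 2w-WD and at 6.69, 6.74, 7.14, 6.18 and 7.10 in 14w-WD. Replicate 1 of 2w-WD reached above replicate 4 of 14w-WD, and the other arrays of these groups did not overlap. Rab35 rose by 1.26 (SE 0.29, adjusted p = 0.0181), and its 2w-WD mean of 5.51 ± 0.62 lay under the level needed for testing. Rab15, a regulator of the recycling endosome known mostly from neurons, stood at 7.97, 6.17, 6.52, 6.75 and 6.65 in CHOW, at 7.24, 6.06, 6.06, 6.21 and 6.19 in 2w-WD and at 7.34, 7.46, 7.53, 7.26 and 7.32 in 14w-WD. The 14w-WD arrays lay close together and above all 2w-WD arrays, of which replicate 1 stood apart from the rest. Rab15 rose by 1.03 (SE 0.30, adjusted p = 0.0393).

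Among the other recycling genes, Rab14, which links the Golgi with endosomes and phagosomes, did not overlap between 14w-WD (12.49 to 12.74) and 2w-WD (10.98 to 12.36), with a change of 0.62 (SE 0.22, adjusted p = 0.0673). Rab11a, the GTPase of the slow recycling route, had means of 11.98 ± 0.19 in 14w-WD and 11.56 ± 0.45 in 2w-WD (SD, n = 5 each) and a change of 0.41 (SE 0.21, adjusted p = 0.184). Rab4a, of the fast route, had 0.37 (SE 0.35, adjusted p = 0.472). Rab11b, at -0.28, and the epithelial Rab17, at -0.37, lay below 0.

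In the secretory pathway from the ER through the Golgi, 7 of 10 members were tested and 0 were called in 14w-WD versus 2w-WD, with 3 higher at an unadjusted p under 0.05 in limma, which 25.9% of all genes were. The median change of this group was 0.63, that of the whole family 0.62 and that of all genes 0.23, of which 10.1% were called higher. Rab1a, which moves vesicles from the ER to the Golgi, stood at 12.01, 11.92, 12.25, 12.65 and 12.34 in CHOW, at 12.16, 11.62, 12.21, 9.93 and 12.23 in 2w-WD and at 12.59, 12.37, 12.48, 12.49 and 12.37 in 14w-WD. The groups 14w-WD and 2w-WD did not overlap, and 2w-WD replicate 4 lay far below every other array. The change of Rab1a was 0.83 (SE 0.33, adjusted p = 0.103), and 0.41 without that array. Rab43, a Golgi GTPase, had 1.08 (SE 0.37, adjusted p = 0.0630) and Rab2a, which acts between the Golgi and the ER, had 0.63 (SE 0.23, adjusted p = 0.0811). Rab6b had 0.87 and Rab6a, which serves transport back through the Golgi, had 0.20, while Rab33b had -0.22 and Rab2b had -0.36.

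Of the 12 members that act in exocytosis, 7 were tested, 1 rose in 14w-WD versus 2w-WD and the median change was 0.86. That is 14.3% called higher, against 10.1% of all genes, whose median change was 0.23. Rab8b, which delivers vesicles to the plasma membrane, stood at 11.55, 11.18, 11.43, 12.17 and 11.41 in CHOW, at 10.93, 10.28, 11.49, 8.94 and 11.47 in 2w-WD and at 12.13, 11.77, 11.77, 11.76 and 12.12 in 14w-WD. The 14w-WD arrays lay above all 2w-WD arrays, among which replicate 4 was lowest. Rab8b rose by 1.29 (SE 0.38, adjusted p = 0.0398), and by 0.87 without that array, where the call was lost (adjusted p = 0.0692). Its close relative Rab8a had 0.35 (SE 0.20, adjusted p = 0.219). Rab10, of the same branch of the family, had means of 9.62 ± 0.24 in 14w-WD and 8.59 ± 0.88 in 2w-WD (SD, n = 5 each), a change of 1.03 (SE 0.36, adjusted p = 0.0700). Rab3d and Rab27b, both of regulated secretion, had 0.89 and 0.86, and Rab3a and Rab37 had -0.24 and -0.31. For Rab37 the means of 5.56 ± 0.10 in CHOW and 5.59 ± 0.18 in 14w-WD lay under the level needed for testing. It passed only through its 2w-WD arrays, at 5.89 ± 0.43, so its lower value in 14w-WD is not independent of the filter.

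Of the 8 members with other roles 6 were tested, all 6 lay above 0 in 14w-WD versus 2w-WD and 2 rose, with a median change of 0.82. Among all genes 65.2% lay above 0 and 10.1% were called higher, with a median of 0.23. Under quantile normalization Rab40c, 1 of the 6, lay below 0. Rab18, a GTPase of lipid droplets and the ER, stood at 7.71, 6.36, 6.14, 6.11 and 6.91 in CHOW, at 5.66, 5.75, 6.23, 5.62 and 5.94 in 2w-WD and at 7.61, 7.37, 7.09, 7.10 and 6.27 in 14w-WD. Replicate 5 of 14w-WD lay just above the highest 2w-WD array, and the other 14w-WD arrays lay well above it. Rab18 rose by 1.25 (SE 0.30, adjusted p = 0.0219). Rab23, known as a brake on Hedgehog signalling, stood at 6.59, 6.26, 6.02, 6.15 and 6.41 in CHOW, at 5.19, 5.84, 5.65, 5.18 and 6.23 in 2w-WD and at 6.78, 6.31, 6.45, 6.36 and 6.55 in 14w-WD. Its rise was 0.87 (SE 0.21, adjusted p = 0.0215) without overlap, and its 2w-WD mean of 5.62 ± 0.45 lay just under the level needed for testing. Rab29, a partner of the kinase Lrrk2, had 0.98 (SE 0.37, adjusted p = 0.0845), Rab28, a GTPase of cilia, had 0.77 (SE 0.38, adjusted p = 0.168), and Rab40b and Rab40c, which act with ubiquitin ligases, had 0.32 and 0.38.

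Across the 42 genes, all 5 arrays of 14w-WD lay above all 5 of 2w-WD for 11, against 7.06% of all genes tested, and below them for 0, against 1.57%. The 11 were 7 called genes, Rab9, Rab22a, Rab31, Rab15, Rab8b, Rab18 and Rab23, and 4 that were not called, Rab7, Rab7b, Rab14 and Rab1a.

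**Figure D3:**
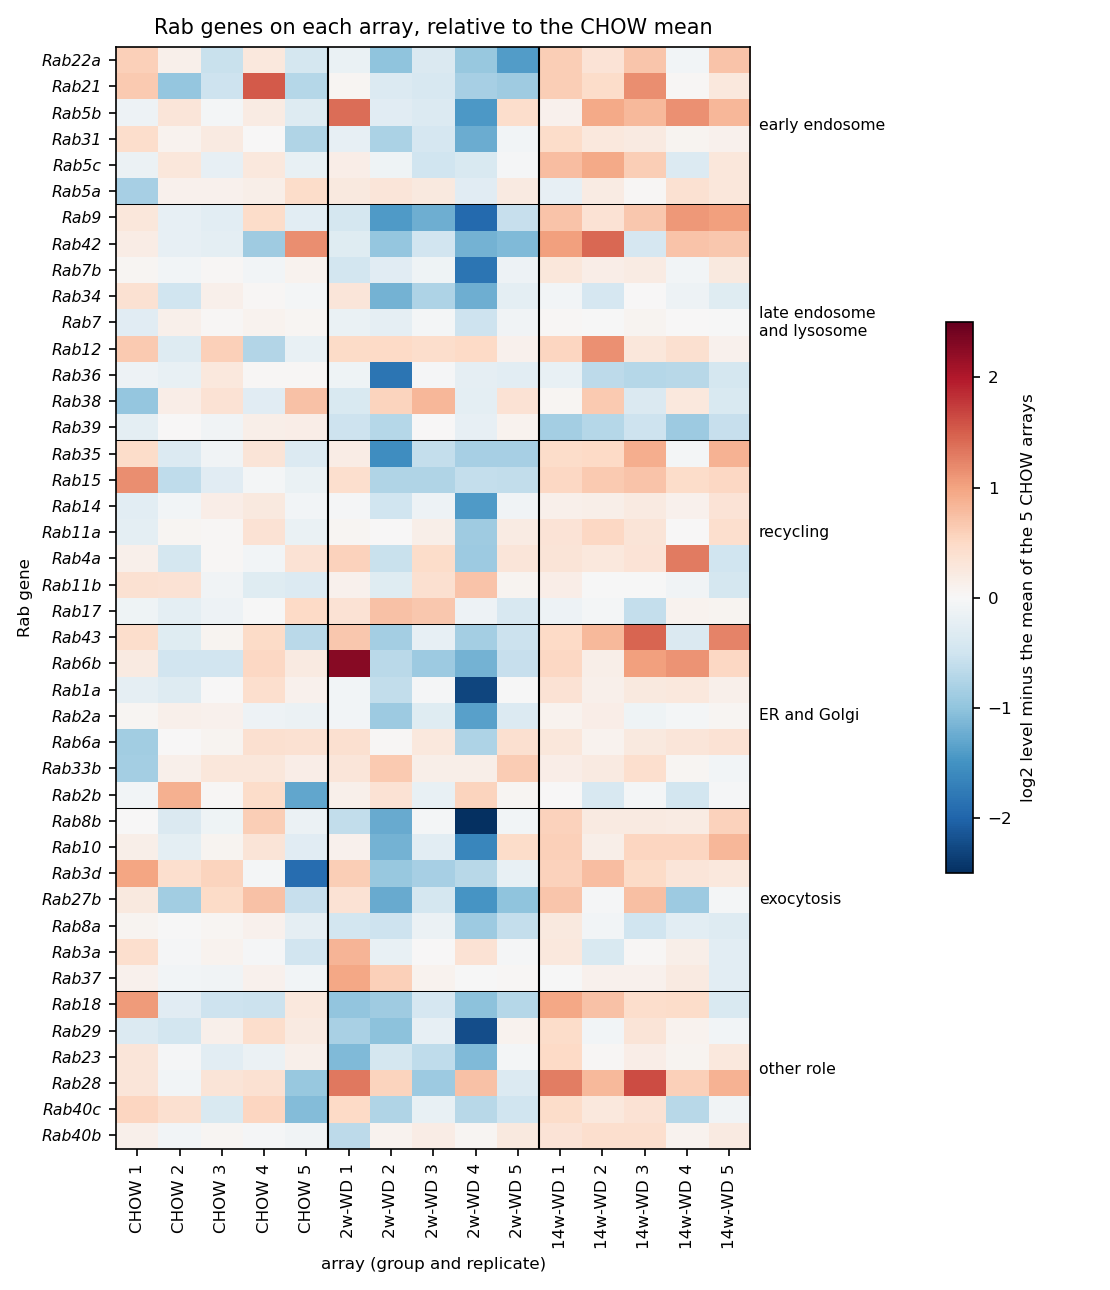
Level of each tested Rab gene (rows, by role) on each of the 15 arrays (columns) minus the mean of the 5 CHOW arrays, on the log2 scale of the colour bar, whose end colours also hold values beyond the ends. The column of 2w-WD replicate 4 holds the lowest of all 15 values for 21 of the 42 genes.

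In 14w-WD versus CHOW, which asks how long western diet feeding differs from none, 0 Rab genes were called higher and 0 lower by limma, against 0.00839% of all genes higher and 0% lower. At an unadjusted p under 0.05, 2 Rab genes were higher and 1 lower, against 11.2% and 4.65% of all genes. The median change was 0.23 for the 42 Rab genes and 0.16 for all genes, and 34 of 42 lay above 0, against 65.6% of all genes, but 26 under quantile normalization, where the medians were 0.11 and 8.7e-05. The 5 genes with the smallest unadjusted p were Rab39, described above, Rab28, Rab9, Rab5b and Rab43.

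Rab28 stood at 6.56, 6.18, 6.57, 6.64 and 5.30 in CHOW, at 7.58, 6.81, 5.34, 6.98 and 5.91 in 2w-WD and at 7.54, 7.06, 7.88, 6.84 and 7.12 in 14w-WD. All 14w-WD arrays lay above all CHOW arrays, which held for no other tested Rab gene and for 3.09% of all genes, while the 2w-WD arrays covered almost the whole range. The change of Rab28 was 1.04 (SE 0.38, adjusted p = 0.217). Rab39 was the 1 Rab gene with all 14w-WD arrays below CHOW, against 1.79% of all genes. This order is not independent of the filter, which Rab39 passed only through its CHOW arrays. Rab9 had 0.78 (SE 0.32, adjusted p = 0.258), Rab5b 0.77 (SE 0.38, adjusted p = 0.333) and Rab43 0.72 (SE 0.37, adjusted p = 0.344).

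In 2w-WD versus CHOW, which asks how short feeding differs from none, limma called 0 Rab genes higher and 0 lower, as it called 0% of all genes in either direction. At an unadjusted p under 0.05, 0 Rab genes were higher and 12 lower, against 2.47% and 7.3% of all genes. The median change was -0.38 for Rab genes and -0.10 for all genes, and 31 of 42 Rab genes lay below and 11 above 0, against 38.8% of all genes above 0. Under quantile normalization 29 lay below 0, with Rab4a and Rab40b turned, and the median was -0.29 against -0.03 for all genes. Without 2w-WD replicate 4 the Rab median was -0.23, against -0.05 for all genes.

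The 5 Rab genes with the smallest unadjusted p in 2w-WD versus CHOW were Rab9 (change -1.12, SE 0.32), Rab23 (-0.67, SE 0.21), Rab8a (-0.53, SE 0.20), Rab18 (-0.80, SE 0.30) and Rab2a (-0.60, SE 0.23), with adjusted p from 0.480 to 0.492. Rab9 averaged 8.50 ± 0.62 in 2w-WD and 9.62 ± 0.34 in CHOW (SD, n = 5 each). Rab9 and Rab7b were the 2 Rab genes whose 2w-WD arrays all lay below all CHOW arrays, which held for 0.83% of all genes. For Rab7b the change was -0.56 (SE 0.25, adjusted p = 0.511), and -0.24 without 2w-WD replicate 4.

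The 3 comparisons share arrays, so their values for a gene are not independent. Set side by side, the 9 genes called in 14w-WD versus 2w-WD had changes of 0.20 to 0.78 in 14w-WD versus CHOW and of -1.12 to -0.46 in 2w-WD versus CHOW. Rab23, for example, averaged 6.28 ± 0.22 on CHOW arrays, 5.62 ± 0.45 on 2w-WD arrays and 6.49 ± 0.19 on 14w-WD arrays (SD, n = 5 each). Rab15 averaged 6.81 ± 0.68 on CHOW arrays, 6.35 ± 0.50 on 2w-WD arrays and 7.38 ± 0.11 on 14w-WD arrays. Over the 42 Rab genes, 2w-WD had the lowest group mean for 29 (69%), against 50.5% of all genes. Both the lowest mean in 2w-WD and the highest in 14w-WD were found for 27 (64.3%), against 41% of all genes.

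The Rab genes also differed in spread. The median SD over the 42 genes was 0.36 for CHOW, 0.50 for 2w-WD and 0.24 for 14w-WD, and that over all genes was 0.43 for CHOW, 0.51 for 2w-WD and 0.32 for 14w-WD. The 2w-WD group had the largest SD for 27 Rab genes (64.3%), against 54.6% of all genes. Replicate 4 of 2w-WD held the lowest 2w-WD value for 24 of 42 Rab genes, against 36.8% of all genes, and without it the median SD of 2w-WD was 0.44. The mean level over the 42 genes was 8.65 ± 0.14 in the CHOW group, 8.35 ± 0.34 in the 2w-WD group and 8.90 ± 0.09 in the 14w-WD group (SD, n = 5 each). On 2w-WD replicate 4 it was 7.86, the lowest of all arrays, and on 2w-WD replicate 1 it was 8.77, inside the CHOW range.

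**Figure D4:**
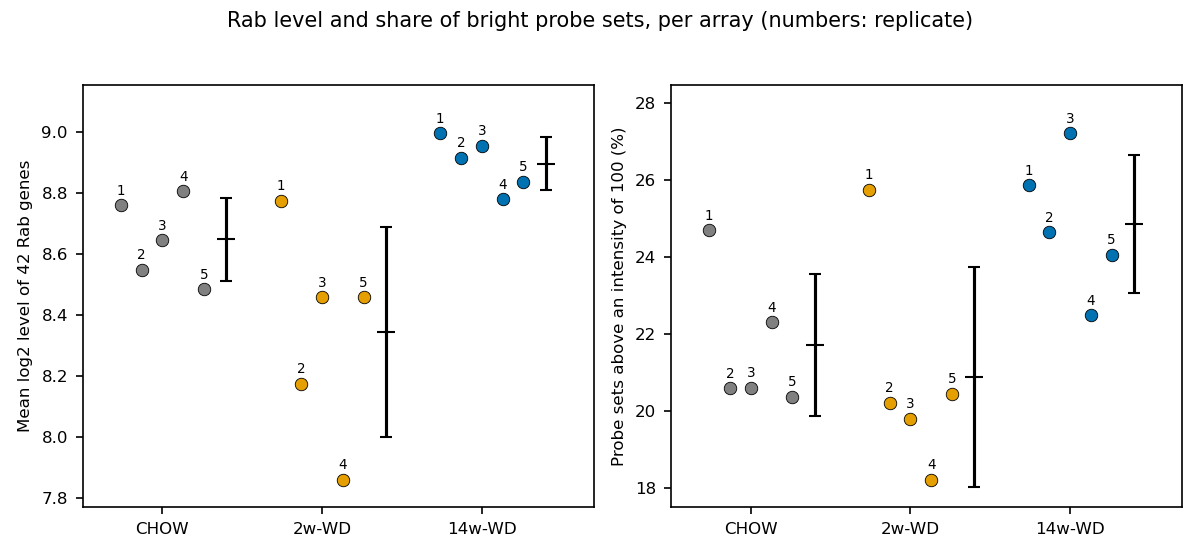
Mean level of the 42 tested Rab genes in log2(intensity + 16) (left) and share of all probe sets above an intensity of 100 in percent (right), with 1 numbered point per array and the mean and SD of each group (n = 5). In both panels 2w-WD replicate 1 is the highest of its group and 2w-WD replicate 4 the lowest of all arrays.

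The same arrays held other signals whose means differed between 14w-WD and 2w-WD, not all in the direction of the Rab genes. The mean level of the 12 tested macrophage markers was 11.90 ± 0.22 in 14w-WD and 11.38 ± 0.23 in 2w-WD (SD, n = 5 each). That of the 15 heart muscle markers was 9.71 ± 0.82 in 14w-WD and 10.28 ± 1.16 in 2w-WD, and that of all tested genes was 7.91 ± 0.09 in 14w-WD and 7.60 ± 0.24 in 2w-WD. Of single markers in 14w-WD versus 2w-WD, the macrophage genes Aif1 (1.82, adjusted p = 0.0106) and Tyrobp (0.38, adjusted p = 0.0261), the smooth muscle gene Mylk (2.09, adjusted p = 0.0338) and the fibroblast genes Pdgfra (1.95, adjusted p = 0.0291) and Col1a1 (1.05, adjusted p = 0.0402) rose, in all 2 of 12 tested macrophage, 1 of 7 smooth muscle and 2 of 8 fibroblast markers, while 0 of 15 heart muscle markers were called. Over all genes, 10.1% were called higher and 1.15% lower. Of 5 tested melanocyte markers 1 was called lower and 4 lay below 0, with a median change of -0.24. The 4 neutrophil and mast cell markers had a median change of -0.67, with 0 called. Among 5 endothelium, 4 T, NK and B cell and 2 dendritic cell markers 0 were called. With the heart muscle mean added to the model, 7 Rab genes were called higher, and the share of all genes called there is not given here. The summed intensity of the 8 fibroblast markers ran from 39212 to 52736 in 14w-WD and from 31036 to 42096 in 2w-WD, and that of the 9 smooth muscle markers from 5698 to 12947 in 14w-WD and from 9608 to 11006 in 2w-WD. No marker of these lists lay at the floor of the arrays in every sample. The part of the macrophage, smooth muscle, fibroblast, melanocyte and neutrophil signals in the Rab changes was not tested.

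Several Rab genes have further probe sets, and these did not always move alike. When each of the 22519 probe sets above the level was tested alone, 15 of the 76 for Rab genes were higher in 14w-WD versus 2w-WD and 0 lower, against 9.81% of all tested probe sets on the higher side and 1.39% on the lower side. In all, 21 Rab genes had more than 1 tested probe set. For 9 of these 21 the signs differed between probe sets: Rab2a, Rab2b, Rab3d, Rab8a, Rab11b, Rab17, Rab27b, Rab31 and Rab38. Rab31 is the 1 called gene among them, with 0.77 for the brighter and -0.54 for the dimmer probe set (adjusted p = 0.0634). Conversely, the dimmer probe set of Rab7 rose by 1.13 (adjusted p = 0.0162) where the brighter one had 0.23, and that of Rab7b rose by 1.77 (adjusted p = 0.0255), with means of 10.68 in 14w-WD and 8.90 in 2w-WD. Rab6a, with 0.20 for its brightest probe set, rose by 1.26 (adjusted p = 0.0255) for another. Dimmer probe sets of Rab43 (1.29, adjusted p = 0.0309), Rab6b (1.21, adjusted p = 0.0411) and Rab1a (0.80, adjusted p = 0.0499) rose as well. Rab22a and Rab23 were each called for the brighter probe set only (0.27 and 0.28 for the other). The representative probe sets of Rab3a, Rab4a, Rab14 and Rab38 carry a suffix that marks possible hybridisation to related transcripts, so their values are uncertain.

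**Figure D5:**
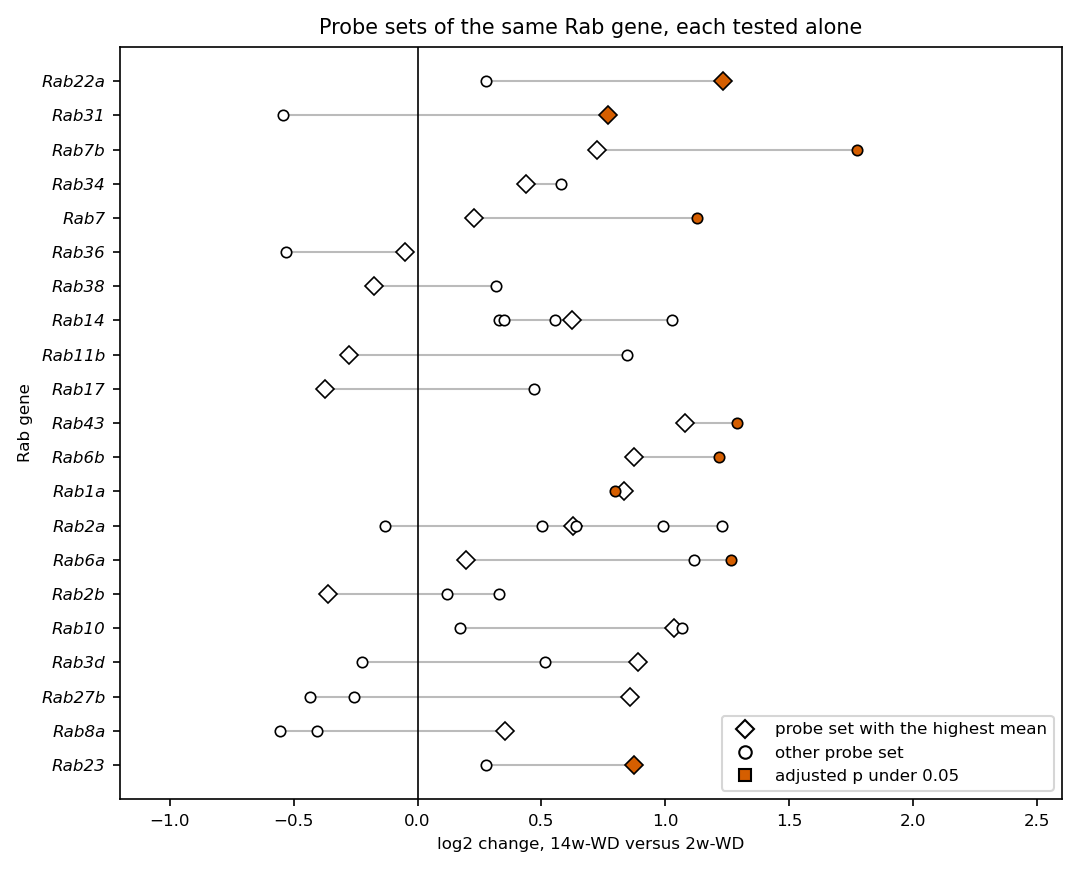
Log2 change in 14w-WD versus 2w-WD (horizontal axis) of each tested probe set of the 21 Rab genes that have more than 1 (rows); diamonds mark the probe set with the highest mean, circles the others, and filled symbols an adjusted p under 0.05. For 9 genes the probe sets lie on both sides of 0.

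The 17 untested Rab genes had mean levels of 4.24 to 5.40: Rab1b, Rab3b, Rab3c, Rab4b, Rab9b, Rab13, Rab19, Rab20, Rab24, Rab25, Rab26, Rab27a, Rab30, Rab32, Rab33a, Rab39b and Rab44. The nearest outside the limit of 5.66 were Rab27a at 5.40 and Rab24 at 5.35, and the nearest inside were Rab37 at 5.68 and Rab39 at 5.76. Rab27a, which docks secretory lysosomes, averaged 5.43 ± 0.38 on CHOW arrays, 5.31 ± 0.50 on 2w-WD arrays and 5.46 ± 0.19 on 14w-WD arrays (SD, n = 5 each). Rab32 averaged 5.33 ± 0.36 on CHOW arrays, 5.36 ± 0.79 on 2w-WD arrays and 5.24 ± 0.47 on 14w-WD arrays. Rab20, which acts on phagosomes and endosomes of macrophages, stood at 5.25, 4.56, 4.77, 5.46 and 4.41 in CHOW, at 4.21, 4.42, 5.09, 4.55 and 4.20 in 2w-WD and at 5.83, 5.72, 5.70, 4.95 and 6.02 in 14w-WD. It passed the limit on 4 arrays, all of 14w-WD, and was left untested because its mean over the 15 arrays was 5.01. Rab24 was the 1 untested gene with a group mean above the limit, 5.75 ± 0.82 in 14w-WD.

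The regulators and effectors of Rab proteins were described from lists of 154 genes, of which 145 were measured and 111 tested. In 14w-WD versus 2w-WD 19 were higher (17.1%) and 1 lower, beside 10.1% and 1.15% of all genes. The median change of the 111 was 0.44, against 0.23 for all genes, and 84 of 111 lay above 0, against 65.2% of all genes. In 14w-WD versus CHOW and in 2w-WD versus CHOW, limma called 0 in either direction. At an unadjusted p under 0.05, 19 were higher and 5 lower in 14w-WD versus CHOW, against 11.2% and 4.65% of all genes. In 2w-WD versus CHOW 2 were higher and 9 lower at that p, against 2.47% and 7.3% of all genes.

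Among the machinery that gives Rab proteins their anchor, 2 of 6 tested genes rose in 14w-WD versus 2w-WD (33.3%, against 10.1% of all genes). They were Rabggtb, the catalytic subunit of the enzyme that attaches it (1.39, SE 0.40, adjusted p = 0.0366), and Icmt, which methylates prenylated proteins (1.18, SE 0.28, adjusted p = 0.0210). Of 26 tested exchange factors 5 rose (19.2%, against 10.1% of all genes) and 1 fell. Mon1b (1.56, SE 0.35, adjusted p = 0.0180) and Ccz1 (1.13, SE 0.35, adjusted p = 0.0470) belong to the complex that activates Rab7. Rin1, an activator of Rab5, rose by 1.00 (adjusted p = 0.0283), Dennd5a by 1.43 (adjusted p = 0.0431) and Rab3gap2, part of the activator of Rab18, by 1.20 (adjusted p = 0.0497). Of 24 tested GTPase-activating proteins 2 rose, a share of 8.33% that lies below the 10.1% of all genes: Tbc1d12 (1.68, adjusted p = 0.0117) and Rabgap1 (1.13, adjusted p = 0.0472).

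Effectors are the proteins that bind the active Rab. Their counts stand beside 10.1% of all genes called higher in 14w-WD versus 2w-WD, with a median change of 0.23. Of 10 tested Rab5 effectors and early endosome tethers 3 rose (30%) in 14w-WD versus 2w-WD, with a median change of 0.71: Rbsn, which encodes rabenosyn-5 (1.45, SE 0.26, adjusted p = 0.0111), Pik3r4, a subunit of the endosomal lipid kinase (0.96, adjusted p = 0.0291), and Ankfy1 (0.89, adjusted p = 0.0483). The mean of Rbsn was 8.09 ± 0.32 in 14w-WD and 6.65 ± 0.45 in 2w-WD (SD, n = 5 each), without overlap. Of 17 tested genes for Rab7 effectors, the HOPS tether and retromer 3 rose (17.6%), and the median change was 0.23, as over all genes. They were Vps35, the core of retromer (1.55, SE 0.43, adjusted p = 0.0326), the sorting nexin Snx1 (1.23, adjusted p = 0.0361) and Plekhm1, a lysosomal adaptor (1.29, adjusted p = 0.0486). Vps35 averaged 10.54 ± 0.09 in 14w-WD and 8.99 ± 0.84 in 2w-WD.

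Of 13 tested effectors of Rab4, Rab11 and Rab8 1 rose, Rufy1 (1.17, adjusted p = 0.0363), a share of 7.69% against 10.1% of all genes. Of 10 tested effectors of Rab6, Rab1 and Rab2, 3 rose (30%): the ER to Golgi tether Uso1 (1.53, adjusted p = 0.0161), the dynein adaptor Bicd2 (1.15, adjusted p = 0.0412) and the golgin Golga5 (0.81, adjusted p = 0.0483). Of 8 tested effectors of Rab27 and Rab3, limma called 0, with 0 higher and 1 lower at an unadjusted p under 0.05, and their median change was 0.08. The lists share a few members, such as Rabep1, so their sizes do not add up to the 111 tested.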

How the data were processed

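The authors deposited linear intensities of 45037 probe sets on 15 arrays. The steps by which they were summarised and normalized are not given in the sources used here. Per the labels' protocols, RNA from microdissected macrophages was amplified before labelling. Probe sets were named through GEO's annotation of the array, which gave 34945 a single gene and 932 more than 1, while 9160 stayed unnamed. Of those with a single gene, 34741 matched the gene table of GRCm38.p6 and 0 symbols needed an update.

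Intensities were turned into log2(intensity + 16), the probe set with the largest average stood for each of 18193 genes, and the 11925 genes with a mean of at least 5.66 (an intensity of 34.6), the median of all probe sets, were tested. limma 3.58.1 in R 4.3.3 (lmFit and eBayes with an intensity trend, two-sided) was fitted to all 15 arrays, with Benjamini-Hochberg adjustment over 11925 genes and a threshold of 0.05. The fit was tested on simulated data of 11925 genes for 14w-WD versus 2w-WD. It recovered 38 of 100 genes changed by a log2 of 1 and 85 of 100 changed by 2, and 7 of its 130 calls were unchanged genes. The simulated noise was independent between genes and between arrays. Shifts shared by many genes on single arrays, as on 2w-WD replicate 4, were not simulated. The share of unchanged genes among the calls therefore need not hold for these data. For arrays no counting depth exists, and their number and the brightness of a probe set limit the precision.

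Named Rab genes were those called, the 5 with the smallest unadjusted p in each comparison, and a fixed set of well-known members, and the other members are given by their values within their role group. The members, role groups, regulator lists and markers were chosen with earlier results of these data known, so no test was run over a list. No label says that a replicate number marks a shared animal, litter, batch or day, so the numbers were not taken as pairs. Deviations of same-numbered arrays from their group means had correlations from -0.17 to 0.48, with 7 of 15 over 0.1. Arrays with different numbers were not compared, so these correlations cannot decide whether a number marks a shared factor. Alternatives covered normalization between arrays, pseudocount, filter, array weights, covariates, probe sets, the trend, the replicate number and each array left out. The 1 regulator called lower in 14w-WD versus 2w-WD is counted but not reported by name here.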

Additional observations from a re-analysis of the deposited data

Results flagged for a closer look

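Within the groups of 5 arrays, single values that stood far from the nearest other array of their group were looked for over 90 groups, and 7 were found, where chance alone gives about 1 in 20 groups. Replicate 4 of 2w-WD gave 4 of the 7, each on the low side: Rab1a at 9.93 (the nearest 2w-WD array at 11.62), Rab7b at 10.42 (nearest 11.80), Rab11a at 10.76 (nearest 11.67) and Rab5a at 11.78 (nearest 12.29). Replicate 1 of CHOW gave 2, also on the low side: Rab5a at 11.25 (nearest 12.17) and Rab7 at 12.56 (nearest 12.87). Replicate 1 of 2w-WD gave the last, on the high side: Rab15 at 7.24 (nearest 6.21). These 3 arrays also had the lowest array weights in limma, 0.394 for 2w-WD replicate 4, 0.364 for CHOW replicate 1 and 0.299 for 2w-WD replicate 1. What set these values apart was not tested.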

How the results depend on the processing

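Over 30 alternatives, the count of 9 Rab genes higher in 14w-WD versus 2w-WD stayed within 1.5 times in 19. It was 5 with a filter at the 75th percentile of all probe sets. There Rab18, Rab23, Rab35 and Rab42 were no longer tested, and the 5 called genes still tested kept their call. The count was 20 with array weights, 0 with the share of bright probe sets (over 100) in the model, 16 with the 3 lowest-weighted arrays removed (a choice made after seeing the data), and 1 to 20 when single arrays were left out. On the lower side it was 0, but 1 with array weights. In 14w-WD versus CHOW the count higher was 0, but 4 with array weights and 2 without the 3 arrays, and the count lower was 0, but 1 with array weights, 1 without the 3 arrays and 1 when only these groups were fitted. In 2w-WD versus CHOW it was 0 under all 30 alternatives. The F test, with 1 call, gave 2 with a pseudocount of 64, 15 with array weights, 3 with the mean of all probe sets, 2 with the heart muscle mean in the model, 0 with the share of bright probe sets, 9 without the 3 arrays and 0 to 12 with single arrays left out. With the replicate block, which no label calls for, 10 Rab genes were higher in 14w-WD versus 2w-WD, among them the 9, and the F test called 8. The shares of all genes called under these alternatives are not given here, so the counts cannot be read as particular to Rab genes. Rab31 was called in 10 of 29 alternatives, and the 8 other called genes in 18 to 28 of 27 to 29. None of the 9 changed sign. The members called also changed. In limma under quantile normalization Rab15, Rab22a and Rab31 lost their call (adjusted p = 0.0531, 0.0709 and 0.0673). Rab7b and Rab14 gained one there (adjusted p = 0.0486 and 0.0444). The causes were not tested.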
